A study of Mus musculus with 9 samples.

Results

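The genes described here are the mouse zinc finger genes whose symbols begin with Zfp or Zbtb and a digit, measured in bone and bone marrow of castrated against sham-operated mice. Members were taken as array features annotated to exactly 1 gene of that name, with a value on at least 2 arrays of each group. They came to 88 genes, 77 Zfp and 11 Zbtb, among 7170 rows analysed, of which 4775 are named genes. The full array carried 113 such genes on 147 features, and 25 of them had too few values. Among those 25 were Zbtb3 and Zfp423, a factor of fat and B lymphocyte development. A further 19 features that name a Zfp or Zbtb gene together with other genes were not used. The 88 genes were read by 114 features, and 79 of them had a value on all 9 arrays.

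Each array compared a C57BL/6 mouse castrated at 7 weeks of age with an age-matched sham-operated mouse, the pair sharing 1 slide in the dyes Cy5 and Cy3. There were 3 groups of 3 arrays. The young groups were bone (young bone) and bone marrow (young marrow) of 17-week-old mice. The other group held specimens labelled bone marrow of 59-week-old mice (old marrow). Whether the young groups shared animals was not known, and the main fit took all 9 arrays as independent. The bones were femur, tibia and humerus, and a separation of marrow from bone is described for the young mice, so the bone content of the old specimens was not known. The castrated mouse carried Cy5 on 6 arrays and Cy3 on the others, which were young bone replicate 3, young marrow replicate 2 and old marrow replicate 2 and are called swapped here. Each deposited value is a log ratio, read here as log2, and its sign was taken as castrated over sham because each array is described as castrated against sham. That direction is likely rather than stated, and every result below depends on it: if the values are instead Cy5 over Cy3, the swapped arrays change sign (the channel reading), and no member passes the test. The B lymphocyte marker genes give a measure of the same question, since their median as deposited was above 0 on 9 of 9 arrays, at 0.49 to 1.15, swapped arrays included.

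Zinc finger genes of these families encode proteins in which short loops, each held by a zinc ion, read DNA or RNA. Most Zfp proteins carry C2H2 fingers that bind DNA, often behind a KRAB domain that recruits the corepressor Trim28, and many of these keep mobile elements silent. Zbtb proteins carry an N-terminal BTB domain that pairs proteins and recruits corepressors such as Ncor1, and several of them decide the fate of developing blood and immune cells. The Zfp name also covers proteins of other kinds, among them the CCCH proteins Zfp36 and Zfp36l1, which bind messenger RNA and speed its decay. One member, Zbtb11os1, is annotated as a long noncoding RNA, and the other 87 are protein coding.

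Of the 88 genes, 4 differed from 0 in the average over the groups at an adjusted p under 0.05 (limma, Benjamini-Hochberg over all 7170 rows). Zbtb5, Zfp36l1 and Zfp318 rose and Zbtb7b fell, that is 3 members up and 1 down, beside 1.95% of all rows called up and 1.95% called down. The sequences upstream of these 4 genes are shown because they carried every call among the members in the fit to all 9 arrays. Each is the 250 bases before an annotated start (RefSeq, GRCm38.p6), printed in the gene's own direction. Capitals mark the GC box, GGGCGG or CCGCCC, which Sp and Klf factors bind, and the hexamer AGAACA or TGTTCT, which makes up each arm of the androgen and glucocorticoid receptor element. Zbtb7b has entries for 2 starts.
Zbtb5, chr4:45012413-45012662, minus strand: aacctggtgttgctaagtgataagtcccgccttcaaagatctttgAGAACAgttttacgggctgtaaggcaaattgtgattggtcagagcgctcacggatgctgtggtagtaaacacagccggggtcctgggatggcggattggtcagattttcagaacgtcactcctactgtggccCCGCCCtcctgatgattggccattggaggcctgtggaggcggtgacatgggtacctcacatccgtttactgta
Zbtb7b, upstream of its downstream start, chr3:89387672-89387921, minus strand: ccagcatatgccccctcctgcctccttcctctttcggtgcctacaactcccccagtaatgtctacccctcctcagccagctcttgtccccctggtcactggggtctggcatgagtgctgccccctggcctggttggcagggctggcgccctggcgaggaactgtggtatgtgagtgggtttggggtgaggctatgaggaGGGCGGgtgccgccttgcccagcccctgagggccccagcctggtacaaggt
Zbtb7b, upstream of its upstream start, chr3:89393379-89393628, minus strand: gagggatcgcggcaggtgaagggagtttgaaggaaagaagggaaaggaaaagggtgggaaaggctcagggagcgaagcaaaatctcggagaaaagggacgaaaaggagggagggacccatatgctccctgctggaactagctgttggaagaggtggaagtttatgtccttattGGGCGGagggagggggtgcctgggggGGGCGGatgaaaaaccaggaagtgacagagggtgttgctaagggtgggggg
Zfp318, chr17:46383516-46383765, plus strand: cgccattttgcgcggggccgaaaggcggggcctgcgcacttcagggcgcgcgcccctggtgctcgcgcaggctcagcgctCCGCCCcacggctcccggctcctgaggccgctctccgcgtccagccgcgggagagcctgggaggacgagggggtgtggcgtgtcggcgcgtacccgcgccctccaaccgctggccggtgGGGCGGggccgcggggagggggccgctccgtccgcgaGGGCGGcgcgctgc
Zfp36l1, chr12:80113014-80113263, minus strand: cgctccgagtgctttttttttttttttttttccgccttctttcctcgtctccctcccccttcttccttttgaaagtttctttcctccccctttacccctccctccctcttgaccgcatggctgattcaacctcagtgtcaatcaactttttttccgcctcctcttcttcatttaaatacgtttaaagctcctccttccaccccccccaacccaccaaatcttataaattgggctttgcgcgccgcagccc

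The Zfp318 stretch held 3 GC boxes at 79.6% G and C, and the Zfp36l1 stretch held neither motif at 48.4%. Zbtb5 held 1 GC box and 1 receptor hexamer. The Zbtb7b stretches held 1 and 2 GC boxes and no hexamer. Of the 88 genes, 75 were matched to 92 such promoters. A GC box stood in 57.6% of the member promoters, against 32.7% of all 32851 promoters in the table and 56.7% of those of genes measured here, so the share among members was that of the measured genes. The receptor hexamer stood in 15.2% of member promoters, against 16.1% of all promoters and 10.97% of those of measured genes. Both motifs were searched on either strand, and a match is a stretch of letters, not a known site of binding.

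Zbtb7b encodes ThPOK, the repressor that commits developing T lymphocytes to the CD4 helper lineage. Its deposited log2 ratios were -0.15, -0.33 and -0.17 in young bone, -0.61, -0.47 and -0.40 in young marrow, and -0.66, -0.62 and -0.33 in old marrow. All 9 arrays lay below 0, and the young marrow values all lay below those of young bone. The fitted average was -0.42 with a standard error of 0.059, at a limma adjusted p of 0.00382. By group, limma called the fall in old marrow, at -0.54 (SE 0.098, adjusted p = 0.0379). Young marrow, at -0.49 (adjusted p = 0.0602), and young bone, at -0.22 (adjusted p = 0.586), did not pass. The differences between groups did not pass either, the largest being old marrow minus young bone, at -0.32 (SE 0.136, limma adjusted p = 0.679). The old marrow call held without old marrow replicate 3 and was lost without any other array, with limma adjusted p-values from 0.0538 to 0.491, while its estimate stayed between -0.64 and -0.47. The call in the average was lost without old marrow replicate 2 (-0.39, limma adjusted p = 0.0521) and held without each other array.

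Markers of other cell types moved on the same arrays. Over the groups, 6 of the 6 granulocyte markers in the fit (of 14 listed) fell, with a median of -0.48. Of 8 B lymphocyte markers (of 15 listed) 7 rose, with a median of 0.84. Among all rows, 1.95% were called down and 1.95% up. Of 14 T lymphocyte markers 3 were in the fit, Cd4 at -0.14, Thy1 at -0.30 and Cd247 at 0.18, and none was called in the average (3 of 3 at an unadjusted p under 0.05). The granulocyte median ran from -0.56 to -0.33 in young bone, from -0.60 to -0.45 in young marrow and from -0.68 to -0.25 in old marrow. The B lymphocyte median ran from 0.49 to 0.74, from 0.70 to 1.06 and from 0.59 to 1.15 in the same order. The part of these cell types in the members' values was not tested. In whole tissue, fewer cells of a type and less RNA per cell cannot be told apart.

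Zbtb5, a BTB zinc finger protein known as a transcriptional repressor, was at 0.15, 0.54 and 0.54 in young bone, 0.38, 0.52 and 0.23 in young marrow, and 0.04, 0.46 and 0.43 in old marrow. All 9 values lay above 0, the lowest on old marrow replicate 1, and the 3 groups overlapped. Its average rose by 0.40 (SE 0.064, limma adjusted p = 0.00783), with group estimates of 0.45, 0.41 and 0.35 that did not pass singly (adjusted p = 0.17, 0.142 and 0.19). The call was lost without young bone replicate 3 (limma adjusted p = 0.0542), young marrow replicate 2 (0.0759) or old marrow replicate 2 (0.0723), and those are the 3 swapped arrays. The estimate stayed at 0.40 to 0.41 without each of them. Over all rows, calls in the average went from 280 to 107, 74 and 78 in the same order. Without each of the other arrays they stood at 142 to 463.

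**Figure D1:**
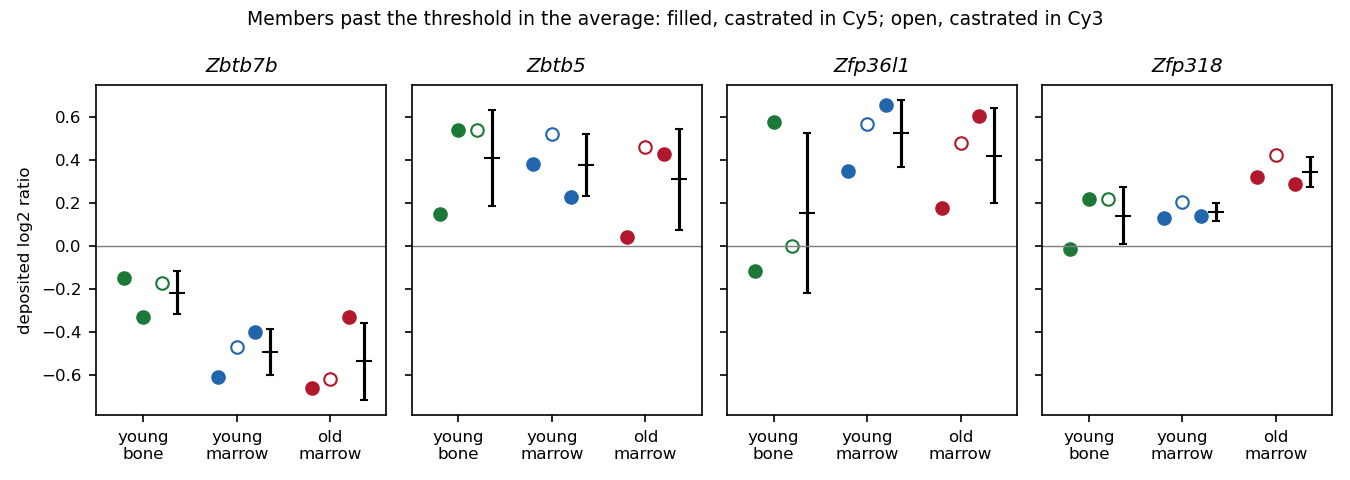
Deposited log2 ratio (vertical axis) of Zbtb7b, Zbtb5, Zfp36l1 and Zfp318 on each array of young bone, young marrow and old marrow, with filled points for the castrated mouse in Cy5, open points for Cy3, and the black mark and bar for mean and SD (n = 3). Zbtb7b lies below 0 and Zbtb5 above 0 on all 9 arrays, while Zfp36l1 ranges from -0.12 to 0.58 within young bone.

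Zfp36l1 encodes an RNA-binding protein that promotes decay of messages with AU-rich elements and acts, with its relative Zfp36l2, in early B lymphocyte development. It was at -0.12, 0.58 and 0.00 in young bone, 0.35, 0.57 and 0.66 in young marrow, and 0.18, 0.48 and 0.61 in old marrow. The marrow arrays all lay above 0, and those of young bone spanned nearly the whole range. The average rose by 0.36 (SE 0.086, limma adjusted p = 0.048). Its 2 features, from different sequence records, gave averages of 0.40 and 0.32, and each passed when fitted alone (limma adjusted p = 0.0441 and 0.0436). No group passed singly, young marrow coming nearest at 0.52 (limma adjusted p = 0.177). With the replicate number as a block, young marrow stood at 0.47 and was called (limma adjusted p = 0.0433).

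Zfp318 encodes a nuclear protein that mature B lymphocytes need to express IgD. It was at -0.01, 0.22 and 0.22 in young bone, 0.13, 0.21 and 0.14 in young marrow, and 0.32, 0.42 and 0.29 in old marrow. The old marrow values all lay above those of the young groups, but the difference of old from young marrow, 0.19 (SE 0.115), was not called (limma adjusted p = 0.429). Not every feature of Zfp318 separated the groups. On old marrow replicate 1 and young marrow replicate 2, 1 feature read -0.15 and 0.50 and another 0.23 and 0.43. The remaining feature, at 0.89 on old marrow replicate 1, did separate them. The average rose by 0.23 (SE 0.05, limma adjusted p = 0.0316). Its 3 features did not give the same value: fitted alone, they stood at 0.36 (limma adjusted p = 0.0144), 0.20 (0.231) and 0.16 (0.256), although the first 2 report the same transcript record. With a value required on all 9 arrays the gene stood at 0.18 and was not called (limma adjusted p = 0.102). With the replicate number as a block it stood at 0.22 and was not called (limma adjusted p = 0.0513).

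The calls of Zfp318 and Zfp36l1 both ended without young bone replicate 2 or 3, without any of the young marrow arrays, or without old marrow replicate 2, with limma adjusted p-values of 0.0532 to 0.293. Without old marrow replicate 1, the array with the widest spread, all 4 calls held.

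The remaining members that kept 1 sign on every array were Zbtb9 and Zfp760. Zfp760 was at 0.12, 0.09 and 0.07 in young bone, 0.15, 0.38 and 0.17 in young marrow, and 0.03, 0.31 and 0.27 in old marrow, with an average of 0.20 (limma adjusted p = 0.0777). Zbtb9 was at 0.13, 0.22 and 0.12, then 0.07, 0.04 and 0.01, then 0.45, 0.30 and 0.09, with an average of 0.16 (limma adjusted p = 0.178). With Zbtb5 they made 3 of 79 members above 0 on all 9 arrays, beside 1.89% of all rows, and Zbtb7b made 1 of 79 below 0, beside 2.41%. Where the 6 unswapped arrays alone are read, on which both readings of the ratio are the same, 4 of 79 members lay above 0 on each (Zbtb5, Zbtb9, Zfp760 and Zfp950; 5.06%, beside 3.86% of all rows) and 4 below (Zbtb7b, Zfp326, Zfp511 and Zfp771; 5.06%, beside 7.14%). A fit of those 6 arrays placed Zbtb7b at -0.41 (limma adjusted p = 0.0626) and Zbtb5 at 0.30 (0.168).

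**Figure D2:**
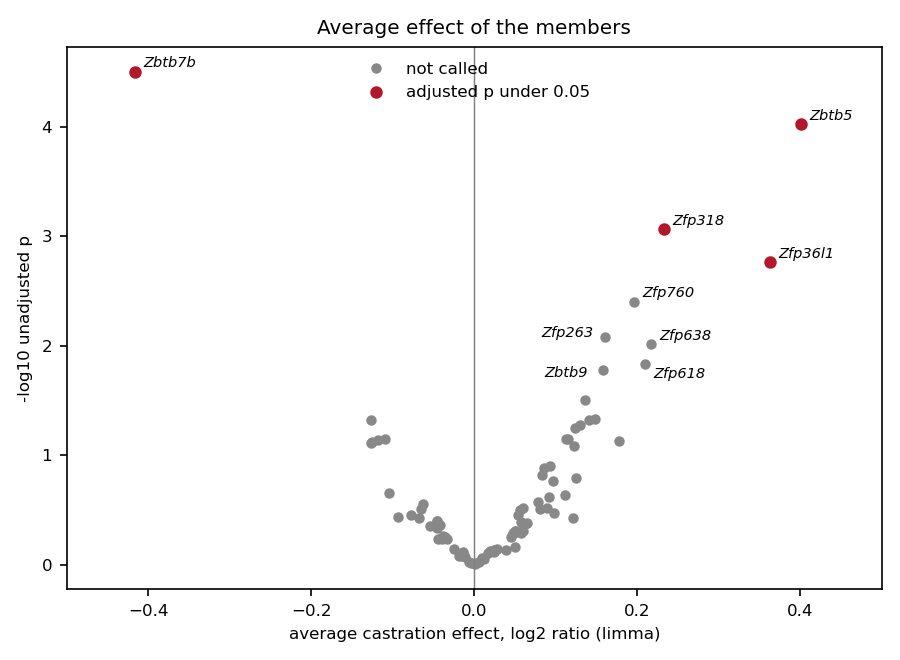
Fitted average castration effect of each of the 88 members (horizontal axis, log2 ratio) against -log10 of its unadjusted limma p (vertical axis), with the 4 members called after adjustment in red. Most genes cluster around 0, Zbtb7b stands alone on the low side at -0.42, and the genes with unadjusted p under 0.02 on the high side are named.

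The 88 genes differed little from each other. The SD of the fitted average across the 88 members was 0.11, against 0.134 across all rows, and their median was 0.03 against -0.0025. By group, the SD across members was 0.127 in young bone, 0.159 in young marrow and 0.168 in old marrow, against 0.158, 0.184 and 0.227 for all rows. In the average 56 members lay above 0 and 32 below, and 13 had an unadjusted p under 0.05, which is 14.8% against 16.0% of all rows. The median of the members exceeded the median of all rows on 9 of 9 arrays, by 0.0233 to 0.10. Taken apart, the Zfp median exceeded it on 8 of 9 arrays and the Zbtb median on 4 of 9. The excess of the members together is small beside the spread of a single member. The SD of a member over the 9 arrays had a median of 0.182 and ran from 0.0535 for Zfp267 to 0.424 for Zfp53.

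**Figure D3:**
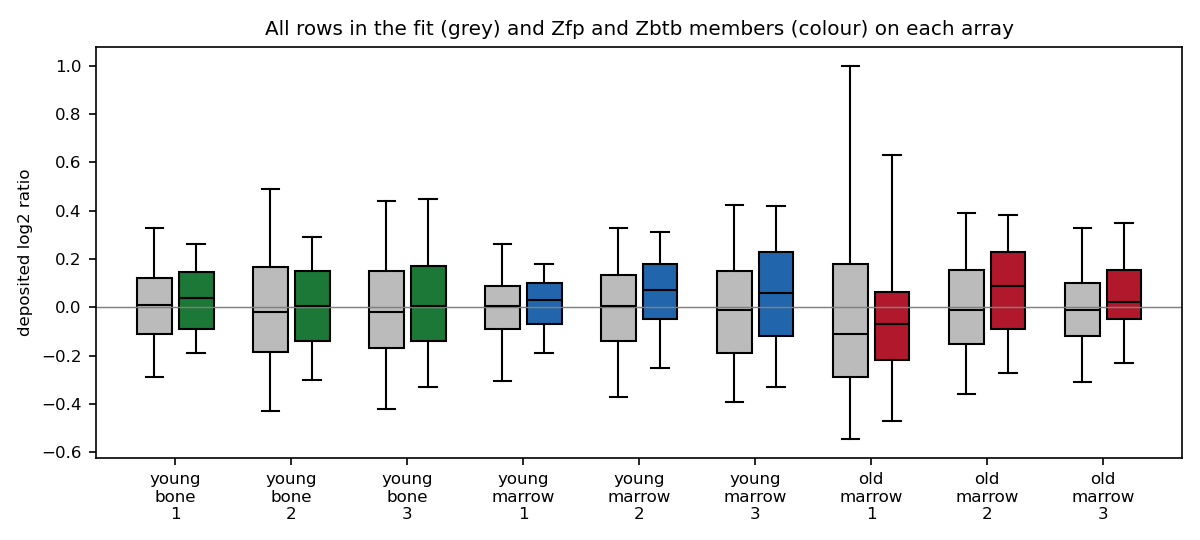
Deposited log2 ratio (vertical axis) of all rows in the fit (grey) and of the members (green, young bone; blue, young marrow; red, old marrow) on each of the 9 arrays; boxes hold the quartiles with the median as a line, and whiskers reach the 5th and 95th percentiles. The member median lies above the grey one on every array, by 0.0233 to 0.10, and old marrow replicate 1 is the widest.

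In young bone, 11 of 87 members were above 0 on all 3 arrays (12.6%), beside 10.4% of all rows, and 10 were below 0 (11.5%), beside 13.9%. None was called, beside 0.279% of rows called up and 0.0418% called down, and 4 members had an unadjusted p under 0.05, 4.55% against 8.51% of all rows. Among members with 1 sign on all 3 arrays, the highest were Zbtb5 (0.41 ± 0.225, mean ± SD, n = 3), Zfp618 (0.25 ± 0.206), Zfp512b (0.25 ± 0.216), Zfp263 (0.24 ± 0.128) and Zbtb9 (0.16 ± 0.0551). The lowest were Zbtb7b (-0.22 ± 0.0987), Zfp934 (-0.20 ± 0.0839), Zfp655 (-0.17 ± 0.114), Zfp131 (-0.17 ± 0.05) and Zfp947 (-0.14 ± 0.0451). Zfp131 carries a BTB domain despite its name, and Zfp263 a KRAB and a SCAN domain. The 3 features of Zfp263, 2 of them from the same sequence record, gave averages of 0.15 to 0.17 over the groups. The 6 skeletal muscle markers in the fit (of 8 listed) lay between -1.09 and -0.33 in young bone, with 0 called by limma and 6 at an unadjusted p under 0.05. The 4 bone matrix markers (of 11 listed) lay between 0.54 and 0.82, with 0 called by limma and 4 at an unadjusted p under 0.05. The arrays were uneven: on replicates 1, 2 and 3 the bone matrix median was 0.24, 1.535 and 0.29. The skeletal muscle median was -1.36, -0.195 and -0.60 in the same order. The part of these markers in the members' values was not tested.

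The largest member value in young bone belonged to 1 array. Zfp91, a ubiquitin ligase of NF-kappaB signalling, stood at 1.01 on replicate 3 and at -0.13 and 0.01 on replicates 1 and 2. Its 3 features read 0.77, 1.01 and 1.26 on that array. In young marrow Zfp91 was at 0.10, 0.26 and 0.04, and in old marrow at -0.18, -0.12 and -0.01, so that the group mean of 0.30 ± 0.625 in young bone rested on replicate 3.

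In young marrow, 26 of 79 members were above 0 on all 3 arrays (32.9%), beside 20.2% of all rows, and 8 were below 0 (10.1%), beside 17.9%. This was the group with the largest one-sided share. No member was called, beside 0.628% of rows up and 0.112% down, and 9 members had an unadjusted p under 0.05, 10.2% against 10.3% of all rows. Among members with 1 sign on all 3 arrays, the highest were Zfp36l1 (0.53 ± 0.157, n = 3), Zbtb5 (0.38 ± 0.145), Zfp131 (0.27 ± 0.0751), Zfp760 (0.23 ± 0.127) and Zfp180 (0.22 ± 0.0802). The lowest were Zbtb7b (-0.49 ± 0.107), Zfp973 (-0.21 ± 0.126), Zfp704 (-0.17 ± 0.115), Zfp809 (-0.10 ± 0.114) and Zfp207 (-0.09 ± 0.0898). Zfp809 silences integrated retroviruses in embryonic cells through Trim28, and Zfp207 is a spindle assembly factor. The fitted young marrow median of the members was 0.05 as castrated over sham and -0.01 under the channel reading.

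In old marrow, 14 of 83 members were above 0 on all 3 arrays (16.9%), beside 16.7% of all rows, and 16 were below 0 (19.3%), beside 24.6%. Of the members, Zbtb7b was called down, beside 0.167% of rows, and none was called up, beside 0.683%. An unadjusted p under 0.05 was reached by 10 members, 11.4% against 18.5% of all rows. Among members with 1 sign on all 3 arrays, the highest were Zfp27 (0.48 ± 0.345, n = 3), Zfp36l1 (0.42 ± 0.221), Zfp318 (0.35 ± 0.0694), Zbtb5 (0.31 ± 0.234) and Zfp704 (0.30 ± 0.254). The lowest were Zbtb7b (-0.54 ± 0.18), Zbtb48 (-0.25 ± 0.142), Zfp574 (-0.21 ± 0.165), Zfp518b (-0.20 ± 0.15) and Zfp771 (-0.19 ± 0.167). Zbtb48 encodes a protein that binds telomere repeats and trims long telomeres. The skeletal muscle markers lay between 0.05 and 0.81 in this group, with 0 of 6 called by limma and 2 at an unadjusted p under 0.05, and their part was not tested. Their median was 1.04, 0.155 and 0.31 on replicates 1, 2 and 3.

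Much of the old marrow spread came from replicate 1. That array held the value farthest from 0 for 24 of the 79 members with all values (30.4%), against 38.3% of all rows, and its SD across members was 0.341. Above 0.5 there were 9 members: Zfp46 at 1.03, Zfp53 at 0.90, Zfp27 at 0.86, Zfp536 and Zfp764 at 0.66, Zfp809 at 0.63, Zbtb21 at 0.62, Zfp704 at 0.59 and Zbtb11os1 at 0.56. Each of these had a median between -0.12 and 0.06 over the other 8 arrays. They were chosen by this value, which is therefore a description. Without old marrow replicate 3, limma called 9 of 88 members in old marrow (10.2%), beside 16% of all rows. Of these, Zfp27, Zfp46, Zfp53, Zfp536, Zfp704 and Zfp809 were also called against young marrow, 6.82% of members beside 10.6% of rows. Both member shares lay below those of all rows.

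**Figure D4:**
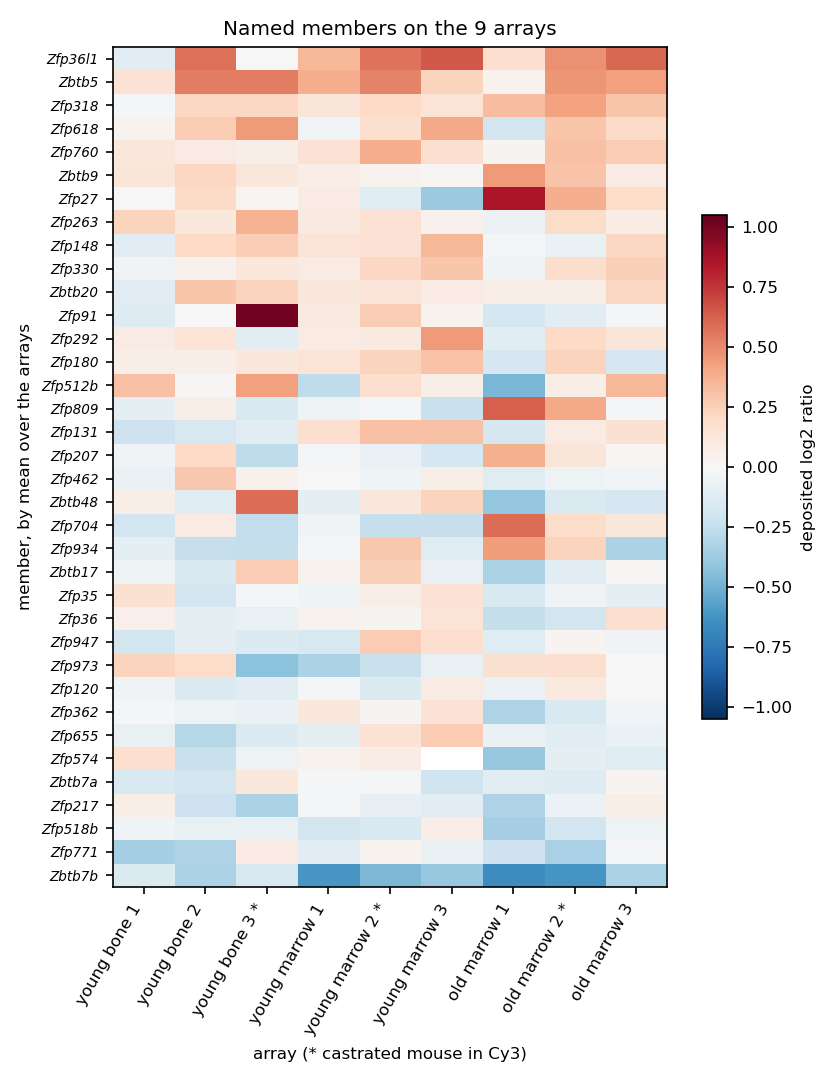
Deposited log2 ratio (colour) of 36 named members (rows, ordered by mean over the arrays) on the 9 arrays (columns; an asterisk marks the castrated mouse in Cy3, and white inside the map without a value is a missing one). Zbtb7b is blue and Zbtb5 red across the whole row, the Zfp91 value of 1.01 stands alone on young bone replicate 3, and Zfp27, Zfp704 and Zfp809 are darkest on old marrow replicate 1.

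No member passed the test of a difference between groups. Of all rows, 0% passed for young marrow minus young bone, 0% for old marrow minus young marrow and 0.0139% for old marrow minus young bone. The counts of members at an unadjusted p under 0.05 were 1, 5 and 5, which are 1.14%, 5.68% and 5.68% of the 88, against 4.67%, 14.7% and 6.82% of all rows. The single gene in the first was Zfp131, at -0.22, -0.17 and -0.12 in young bone and 0.18, 0.31 and 0.31 in young marrow. Its groups did not overlap, and the difference was 0.44 (SE 0.126, limma adjusted p = 0.934). In old marrow it spanned -0.18 to 0.16. Zfp704, close to Zbtb10 on its chromosome, was at -0.20, 0.09 and -0.26 in young bone, -0.04, -0.24 and -0.24 in young marrow and 0.59, 0.19 and 0.12 in old marrow. Old minus young marrow was 0.47 (SE 0.152, limma adjusted p = 0.338). Zbtb48 was lowest in old marrow, with old marrow minus young bone at -0.42 (SE 0.162, limma adjusted p = 0.679).

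Members with a known role in blood or immune cells came next. Of the 9 Zbtb genes listed for that role, 4 were measured. Zbtb7b fell and none rose, beside 1.95% of all rows called down and 1.95% called up. The median of the 4 averages was -0.02. Zbtb7a, a repressor that sets erythroid and B lymphocyte fate, lay at -0.06 in the average and between -0.21 and 0.11 over the arrays. Zbtb17, the Myc partner Miz-1, lay at 0.02 with arrays from -0.33 to 0.27. Zbtb20, a factor of plasma cells, was above 0 on 8 of 9 arrays, with -0.11, 0.29 and 0.24 in young bone, 0.11, 0.14 and 0.08 in young marrow and 0.07, 0.07 and 0.22 in old marrow. Its average was 0.13 (SE 0.059, limma adjusted p = 0.318).

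Both measured CCCH proteins bind AU-rich messages. Zfp36, tristetraprolin, which destabilises the message of tumour necrosis factor, stood at -0.04 in the average (limma adjusted p = 0.858), with arrays from -0.25 to 0.17, beside the rise of its relative Zfp36l1. The difference between these genes was not tested. Of 10 Zfp genes listed for blood, bone and fat, 5 were measured. Beside 1.95% of all rows called up and 1.95% called down, 1 of these 5 genes rose (Zfp318) and none fell. Their median was 0.12, with Zfp148, a GC-box binding factor, at 0.12 (limma adjusted p = 0.404), Zfp217, a corepressor-binding oncoprotein, at -0.13 (0.391) and Zfp35 at -0.01 (0.952).

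The partners and relatives of these proteins were also measured. In the average, 1.95% of all rows were called up and 1.95% down, and 1 call says little about a short list. Of 10 KRAB corepressor genes 7 were measured, with a median of 0.10, and 1 rose: Chd3, a chromatin remodeller of the NuRD complex, at 0.26 (SE 0.057, limma adjusted p = 0.0395). Trim28 itself stood at 0.16 (limma adjusted p = 0.299). Of 8 BTB corepressor and ligase genes 4 were measured, with a median of 0.10, and none was called in the average (1 at an unadjusted p under 0.05). Among 18 of 42 other C2H2 factors the median was 0.02, with 1 up and 1 down. Klf2, which keeps lymphocytes quiescent, rose by 0.33 (SE 0.051, limma adjusted p = 0.00681) and lay above 0 on 9 of 9 arrays. Bcl6, a BTB zinc finger repressor of germinal centre B cells that is not named Zbtb, fell by 0.31 (SE 0.052, limma adjusted p = 0.00971) and lay below 0 on 9 of 9 arrays. It was also called down in young bone, at -0.59 (limma adjusted p = 0.0191).

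Features of the same gene allowed a check of how far a single value can be trusted. Of 19 members read by 2 or 3 features, 11 had feature means within 0.1 of each other on the arrays they share, and the median gap was 0.0867. Across arrays, 7 of the 19 had at least 1 pair of features with a Pearson r below 0, over the 5 to 9 arrays their features shared. Among these were Zfp318, whose lowest r was -0.522, and Zfp236, at -0.534 although its feature means differed by only 0.0856. The widest gaps were 0.216 for Zfp318, 0.184 for Zfp292, 0.17 for Zfp120, 0.164 for Zfp462 and 0.124 for Zfp330. The averages of the 3 Zfp292 features were -0.08, 0.14 and 0.19, and those of Zfp120 were -0.13 and 0.05, so that neither gene has a settled sign. By comparison, the features of Zfp263 differed by 0.0156 and those of Zfp518a by 0.0089. Both Zfp518a features, and 2 of the 3 Zfp263 features, report the same sequence record. The features of Zfp292 and those of Zfp120 report different records. Others of the 11, such as Zfp35 and Zfp91, also include features of the same record.

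Many genes of these families stand in clusters. By the order of genes in GRCm38.p6, 32 of the 87 members placed had a Zfp or Zbtb gene as their direct neighbour, and 19 members were on chromosome 7. Members adjoined each other in 4 pairs. In Zbtb10 and Zfp704 the group means were 0.18, 0.22 and -0.08 for the first and -0.12, -0.17 and 0.30 for the second. These means were opposite in every group, but Zbtb10 held both signs within each group. It was at 0.05, -0.08 and 0.56 in young bone, -0.12, -0.03 and 0.80 in young marrow and -0.60, -0.02 and 0.38 in old marrow. On young marrow replicates 1 and 2 both genes lay below 0. Zfp180 and Zfp112 were at 0.08, 0.22 and -0.04 against -0.03, 0.06 and 0.00. Clones of near-identical family members can share signal on such arrays, and this was not tested.

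The direction of the ratio decides the calls. Under the channel reading 0 members and 0% of rows were called in the average (limma; 3 members at an unadjusted p under 0.05), and the averages became 0.0033 for Zbtb7b, -0.11 for Zbtb5, 0.01 for Zfp36l1 and -0.05 for Zfp318. Under that reading the dye term of the fit carries what the swapped arrays share with the others. It was called by limma for 187 of 7170 rows, with Zbtb5 and Zbtb7b the 2 members among them. Under the castrated-over-sham reading the dye term was called for 0 rows. For a row with a value on every array, the dye term of each reading has the same estimate as the average of the other. These dye counts therefore restate the averages and are no separate measure of the direction.

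**Figure D5:**
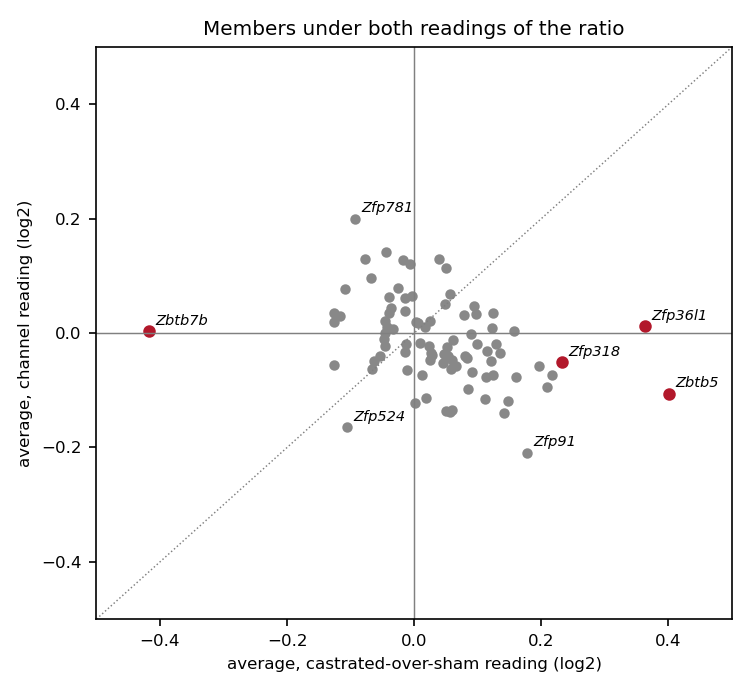
Fitted average of each member under the castrated-over-sham reading (horizontal axis, log2) against the channel reading (vertical axis, log2), with the dotted line marking equal values and the 4 called members in red. All 4 lie within 0.11 of 0 on the vertical axis, and Zfp91, which rests on a swapped array, lies lowest there.

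The other 52 members gave averages between -0.12 and 0.22 and none was called. Of these, 43 lay within 0.1 of 0 and 3 had an unadjusted p under 0.05, beside 16.0% of all rows. The named members took in every called member, so the lack of calls among the 52 follows from that choice. It also took in the highest and lowest 1-signed members of each group. The highest of the 52 was Zfp638, an RNA-associated nuclear protein, at 0.22 (limma adjusted p = 0.13).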

How the data were processed

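The authors deposited 1 table of log2 ratios (read as log2; the base, direction, background correction and scaling are not given in the sources used here), with 8290 to 10995 values per array. Features were named by gene ID through the platform annotation and RefSeq, which changed no member's symbol. Features with 1 gene were averaged per gene and array; the others stayed separate. limma 3.58.1 in R 4.3.3 fitted group effects plus a dye effect shared by the groups to 7170 rows, with 5 residual degrees of freedom where complete, and Benjamini-Hochberg adjustment over all rows at 0.05 for each of 7 comparisons. No scaling was added. Depth has no counterpart here; the number of arrays limits the precision, and p-values measure the spread between pairs of mice. Named genes are the 5 highest and 5 lowest 1-signed members per group, called, 9-of-9 and opposite-signed members, role-list members, and the 5 with the largest gaps between features. The members and lists were chosen with earlier results of these data known. The fit was tested on simulated data. Deviations from the group means of same-numbered arrays correlated at 0.279 to 0.608 between the marrow groups. Between young bone and either marrow group they correlated at -0.368 to 0.412. Those deviations still hold any dye effect, and replicate 2 was the swapped array in both marrow groups. Arrays of unlike number were not compared in this way, so the values cannot show that equal numbers were paired. The blocked value is printed where it changes a call.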

Additional observations from a re-analysis of the deposited data

Results flagged for a closer look

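These 6 results were singled out because all 3 arrays of 1 group lay on one side of 0 and all 3 of another group on the other. In all rows with values, 2.76% did so between young bone and young marrow and 5.56% between the marrow groups, and among 79 members 2 and 4 did. Zfp131 differed by 0.4367 between young marrow and young bone (limma adjusted p = 0.934). Zfp362 differed by 0.14 in the same comparison (limma adjusted p = 0.969) and by -0.2667 between old and young marrow (0.338). The remaining old minus young marrow differences were -0.2378 for Zfp91 (limma adjusted p = 0.564), 0.2622 for Zfp207 (0.40) and 0.4733 for Zfp704 (0.338). None passed the test of the difference. The values of Zfp207 and Zfp91 are means of 3 features each, and no Zfp207 feature showed the opposite signs when read alone. For Zfp91, a feature at -0.19 on young marrow replicate 3 and another at 0.09 on old marrow replicate 3 did not show them. Groups of 3 arrays are too small to be searched for outliers.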

How the results depend on the processing

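Under the channel reading the averages of Zbtb5, Zbtb7b and Zfp318 became -0.1058, 0.0033 and -0.0508 and Zbtb7b in old marrow 0.0156. No member was then called in old marrow (0) or the average (0), member medians became -0.0122 in young marrow, -0.0384 in old marrow and -0.0211 in the average, and the young marrow spread fell to 0.0841. With the 6 unswapped arrays alone 0 members were called in old marrow and 0 in the average, and the median of young marrow minus young bone was 0.0433. In young marrow 1 member was called with no dye term, 1 with arrays centred, 1 with arrays scaled to 1 median absolute deviation and 1 with the replicate block (Zfp36l1; Zbtb7b in the others); that scaling called 0 in old marrow, and centring added Zfp760 to the average. Array weights called 12, 16 and 17 members in young marrow, old marrow and the average and 9 in old minus young marrow (13.6%, 18.2%, 19.3% and 10.2%, beside 17.1%, 24.5%, 18.2% and 21.5% of all rows), with a young bone median of 0.0487.

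Leaving out each array in turn, members called ranged from 0 to 1 in young marrow, 0 to 9 in old marrow, 0 to 4 in the average and 0 to 6 in old minus young marrow; the medians ranged from -0.015 to 0.0356 in young bone and from 0.025 to 0.0575 in young marrow. The replicate block called 3 members in the average, without Zfp318 (limma adjusted p = 0.0513), and Zbtb7b in old marrow (0.0477). It also called Zfp36l1 in young marrow (limma adjusted p = 0.0433), and changed no other call of a member. Zfp36l1 was lost with values required on 1 array of each group (limma adjusted p = 0.0513) and Zfp318 with 1 feature per gene (0.242). Over 21 alternatives Zbtb7b in the average passed in 18, with limma adjusted p-values from 3.78e-05 to 0.996. Not all of these could change it, since Zbtb7b has 1 feature, with a value on all 9 arrays. The value filters, the feature choices and the symbol update left its estimate at -0.4167, and their passes are no separate check. A restriction to members with C2H2 finger patterns was not run. Signal over background is unknown, as intensities were not used here.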
